A study of Saccharomyces cerevisiae with 142 samples.

Results

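Budding yeast carrying disruptions of all B-type cyclin genes (the cyclin mutant) were set against wild-type yeast during early G1, before B-type cyclins normally act. The members were the arrays of both strains sampled at 30, 38, 46, 54 and 62 min, as their titles give them. There were 10 such arrays of 142 in the series, 5 for each strain. Each strain has 2 labelled replicates, here called courses, and each course was sampled every 16 min. Replicate 1 of the mutant was sampled at 38 and 54 min, as was replicate 2 of the wild type. Replicate 2 of the mutant was sampled at 30, 46 and 62 min, as was replicate 1 of the wild type. Every time was therefore measured once in each strain, and every course had a mean sampling time of 46 min.

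The mutant strain is labelled BF264-15DU MATa. Its cyclin alleles are clb1::URA3 and clb2::LEU2, then clb3::TRP1 and clb4::HIS2, then clb5::ARG4 together with clb6::APE1. It also carries GAL1-CLB1:LEU2, a copy of CLB1 behind the promoter of the galactokinase gene, and no other source of B-type cyclin is listed. The wild type is labelled BF264-15DU MATa with bar1, an allele that the mutant's label does not list. Both grew at 30 °C in rich medium holding dextrose and 1 M sorbitol. Small G1 cells were collected from both by elutriation, which sorts cells by size in a centrifuge. The cdc20 strain used for a further comparison shares that background, medium and bar1, and carries cdc20::LEU2, Pgall-CDC20::ADE2 and CFP-TUB1::URA3. Levels in cdc14-3 and cdc15-2 (both BF264-15D MATa bar1, released at 37 °C) and in wild type at 37 °C (bar1) are given only where stated.

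Cyclins are the changing partners of the kinase Cdc28. In G1 the cyclins Cln3, Cln1 and Cln2 start budding and switch on the genes bound by the factors SBF and MBF, while Clb5 and Clb6 start DNA replication and Clb1 to Clb4 drive mitosis. Newly divided cells hold little B-type cyclin activity, since the anaphase-promoting complex degrades these cyclins and Sic1 inhibits what is left. Elutriated daughter cells must also grow before they enter a new cycle, and switch from stored carbohydrate and stress gene expression to ribosome production as they do.

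Values are log2 intensities of 1 probe set a gene, and differences are the mutant minus the wild type on that scale. The array medians lay between 1141 and 1214 on the linear scale. In the mutant arrays the dimmest 5% of genes read below 6.96 to 7.67, the highest value being at 46 min in replicate 2, and in the wild-type arrays below 6.92 to 7.58, the highest being at 62 min in replicate 1. Differences near those levels are compressed. TDH1, a control for RNA integrity, read higher at its 3' than at its 5' probe set by 1.42 to 1.69 in mutant arrays and 1.62 to 2.37 in wild-type arrays, the highest being at 30 min. Its part in the results was not tested. Replicate 2 of the wild type enters with its values moved up by 1 row. As deposited, its arrays at 38 and 54 min had a Pearson correlation of 0.0482 and 0.0522 across probe sets with the mean of replicate 1, and after the move 0.932 and 0.976. No label mentions the displacement, which was read off these correlations. The wild-type courses differed more from each other than the mutant courses did: 109 genes differed by more than 1 between wild-type courses and 47 between mutant courses. The courses of a strain were sampled at different minutes, which enters both counts. Between the strains 78 genes differed by more than 1, but there means of 2 courses were compared. That count is therefore not on the same footing as the others.

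Among the 6 B-type cyclin genes, CLB1 was higher in the mutant, CLB3 and CLB4 were lower, and CLB2, CLB5 and CLB6 did not pass the test. Called genes here and below had an adjusted p under 0.05 in limma on the course means, with 2 courses a strain and the Benjamini-Hochberg adjustment over 5449 genes. No label says that the courses come from separate cultures beyond their replicate number, so p-values measure the spread between these courses, which may be technical.

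CLB1, a mitotic cyclin, read 11.33, 10.97, 11.12, 11.23 and 11.27 in the mutant at 30, 38, 46, 54 and 62 min, against 6.93, 7.16, 7.15, 7.48 and 7.80 in the wild type. The mutant arrays lay flat and far above all wild-type arrays. The difference was 3.86 ± 0.15 (SE), with an adjusted p of 0.00196. The probe set cannot tell the disrupted locus from the galactose-promoter copy. CLB3, which acts in S phase and early mitosis, read 6.08, 6.34, 6.99, 6.70 and 6.62 in the mutant, against 9.73, 9.79, 9.66, 9.70 and 9.84 in the wild type. Mutant values lay at the dim end of the arrays throughout, and the difference was -3.20 ± 0.15 (adjusted p = 0.00234). CLB4, its close relative, read 6.96, 7.26, 8.05, 7.69 and 8.01 in the mutant, against 9.14, 8.97, 9.01, 9.05 and 9.36 in the wild type. It was lower by 2.86-fold (difference -1.51 ± 0.16, adjusted p = 0.0475), again without overlap.

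CLB2, the main mitotic cyclin, was near the dim end in both strains, with 6.48, 6.83, 8.22, 6.89 and 7.10 in the mutant and 7.11, 6.63, 7.18, 7.29 and 7.85 in the wild type. The groups overlapped, and the difference was -0.11 ± 0.22 (adjusted p = 0.892). Its single high value came from the mutant array at 46 min, the one with the brightest dim end. CLB5 and CLB6, the S-phase cyclins, were also labelled as disrupted, yet read well above the dim end in the mutant. CLB5 had 9.76, 10.32, 9.74, 10.24 and 10.09 in the mutant and 9.24, 9.07, 9.33, 9.10 and 9.78 in the wild type, a difference of 0.80 ± 0.22 (adjusted p = 0.422). CLB6 had 8.63 to 9.76 in the mutant and 8.41 to 9.52 in the wild type, with a difference of -0.00 ± 0.25. Where the probe sets lie relative to the disruptions is not given in the sources used here, so these readings check neither allele. CLB2 at these times checks nothing either, since the wild type hardly expressed it.

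**Figure D1:**
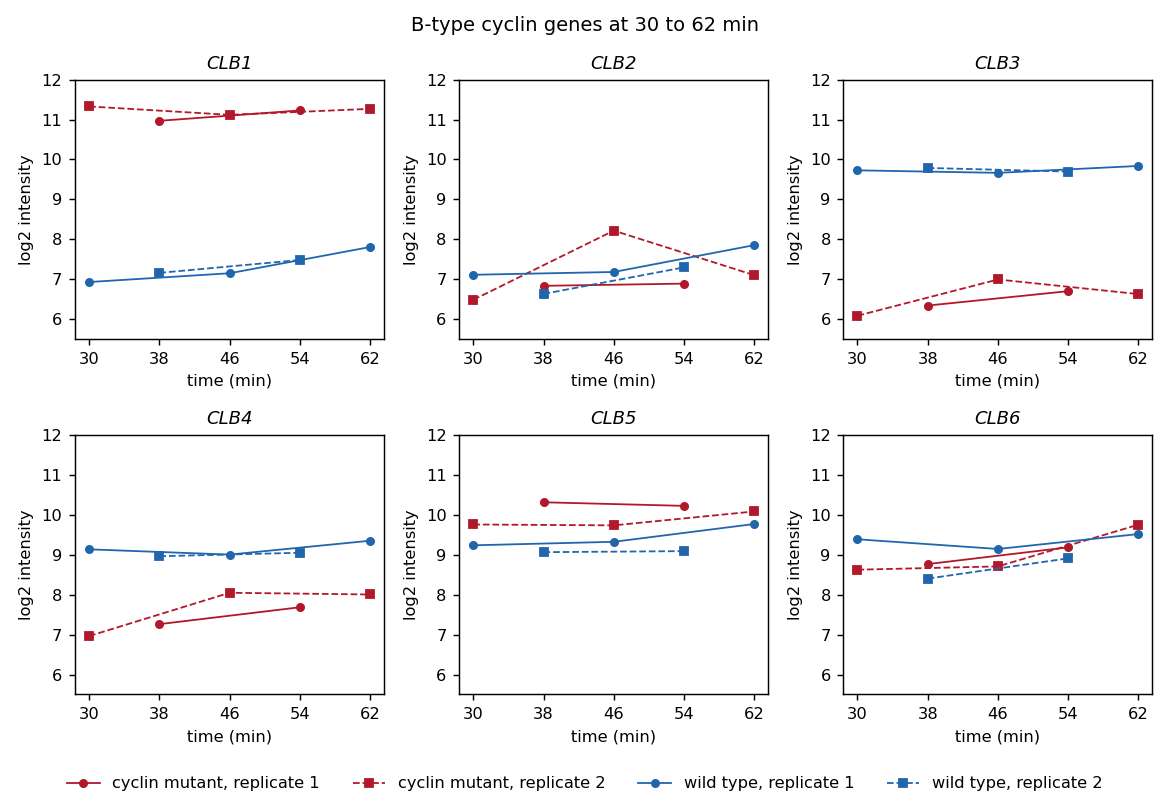
Log2 intensity (vertical axis) of the 6 B-type cyclin genes at 30 to 62 min (horizontal axis, min), with 1 point an array and 1 line a course, mutant in red and wild type in blue. CLB1 lies near 11 in the mutant and near 7 in the wild type, CLB3 and CLB4 are lower in the mutant at every time, and the courses of CLB2 and CLB6 cross.

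Over all genes, 13 of 5449 (0.239%) passed the test, 9 higher in the mutant (0.165%) and 4 lower (0.0734%), and 590 had an unadjusted p under 0.05. The median difference of all genes was 0.01. The 9 higher genes were SNL1, CLB1, YIL014C-A, BAR1, SPL2, GAL1, GAL10, MET17 and DSE1, and the 4 lower ones were CLB3, ATG38, QDR2 and CLB4. Of the 13, 12 had the same sign at all 5 times, and MET17 did not. Among all genes, 670 (12.3%) were higher and 595 (10.9%) lower in the mutant at all 5 times. All mutant arrays lay above all wild-type arrays for 78 genes (1.43%) and below them for 58 (1.06%). A fit of the 10 arrays paired by time, which takes arrays of a course as independent, called 62 genes, 34 of them higher, including 12 of the 13. CLB1, CLB3 and SNL1 were called with any 1 course left out, whereas CLB4, DSE1 and QDR2 were then called in no case. GAL1, GAL10, MET17, SPL2 and ATG38 were called in 1 of these 4 fits, BAR1 in 2 and YIL014C-A in 3. The count was 6 without mutant replicate 1, 4 without mutant replicate 2, 26 without wild-type replicate 1 and 3 without wild-type replicate 2. Without the dimmest 25% of genes, only CLB1 of the 5 called genes still tested was called.

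**Figure D2:**
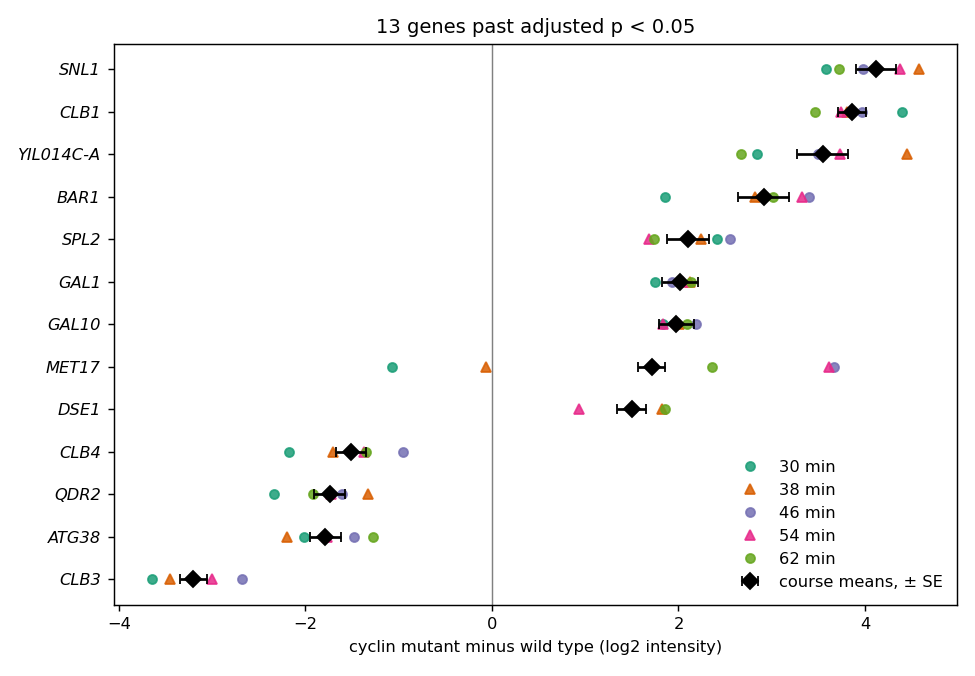
Mutant minus wild-type difference in log2 intensity (horizontal axis) for the 13 genes that passed the test (vertical axis). Diamonds give the difference of course means with its SE, circles the differences at 30, 46 and 62 min and triangles those at 38 and 54 min. SNL1 lies at the top with 4.12 and CLB3 at the bottom with -3.20, and MET17 alone has points on both sides of 0.

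On chromosome IX, 3 neighbouring genes were higher in the mutant. SNL1, BAR1 and YIL014C-A follow each other in the R64 annotation, and all 3 were called. In the wild type SNL1 and YIL014C-A read below the dimmest 5% of genes in all 5 arrays and BAR1 in 4, so their differences are compressed and their sizes are set in part by the dim end. BAR1, the secreted protease that degrades alpha factor, read 9.13, 9.09, 10.50, 10.35 and 10.70 in the mutant, against 7.27, 6.28, 7.09, 7.03 and 7.68 in the wild type. All mutant arrays lay above all wild-type arrays, with a difference of 2.91 ± 0.27 (adjusted p = 0.0356). SNL1, which binds the chaperone Ssa1 at the endoplasmic reticulum and nuclear envelope, read 10.63, 10.97, 10.98, 11.38 and 11.18 in the mutant, against 7.04, 6.39, 7.0, 7.0 and 7.46 in the wild type. Its difference of 4.12 ± 0.21 had an adjusted p of 0.00331. YIL014C-A, an uncharacterised small open reading frame, read 9.43 to 10.46 in the mutant and 5.74 to 7.44 in the wild type, with a difference of 3.55 ± 0.27 (adjusted p = 0.0243). On the far side of SNL1, VID28, a subunit of the ubiquitin ligase that degrades gluconeogenic enzymes, read 10.57, 9.63, 9.26, 8.65 and 8.70 in the mutant, against 11.03, 10.90, 10.60, 10.70 and 10.43 in the wild type. It was lower at all 5 times but not called (difference -1.42 ± 0.18, adjusted p = 0.102). The next genes out, MNT3 and RPL2B, had differences of -0.13 and 0.04.

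The separation of these 3 genes was not limited to early G1 or to this wild type. Over all 30 mutant arrays BAR1 lay between 9.09 and 10.70, and over the other 112 arrays of the series, all from strains labelled bar1, between 5.69 and 7.74. SNL1 lay between 10.38 and 11.42 in mutant arrays and between 5.73 and 7.71 in the others, and YIL014C-A between 9.12 and 10.46 in mutant arrays and between 5.53 and 7.44 in the others. CLB3 showed the opposite arrangement, with 6.08 to 6.99 in mutant arrays and 9.21 to 10.64 in the others. UBC13, a ubiquitin-conjugating enzyme of DNA damage tolerance, was not called (difference 1.82 ± 0.23, adjusted p = 0.0982), although its 5 mutant arrays (11.73 to 12.14) lay above all wild-type arrays (9.77 to 10.69). It was also high in both cdc20 courses, with course medians of 12.56 and 12.40 over all times. At 30 to 62 min it was called lower in the mutant than in cdc20 (-0.67, adjusted p = 0.0187), as were 22.5% of all genes. Its medians were 9.64 to 10.13 in the cdc14-3, cdc15-2 and 37 °C wild-type courses.

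**Figure D3:**
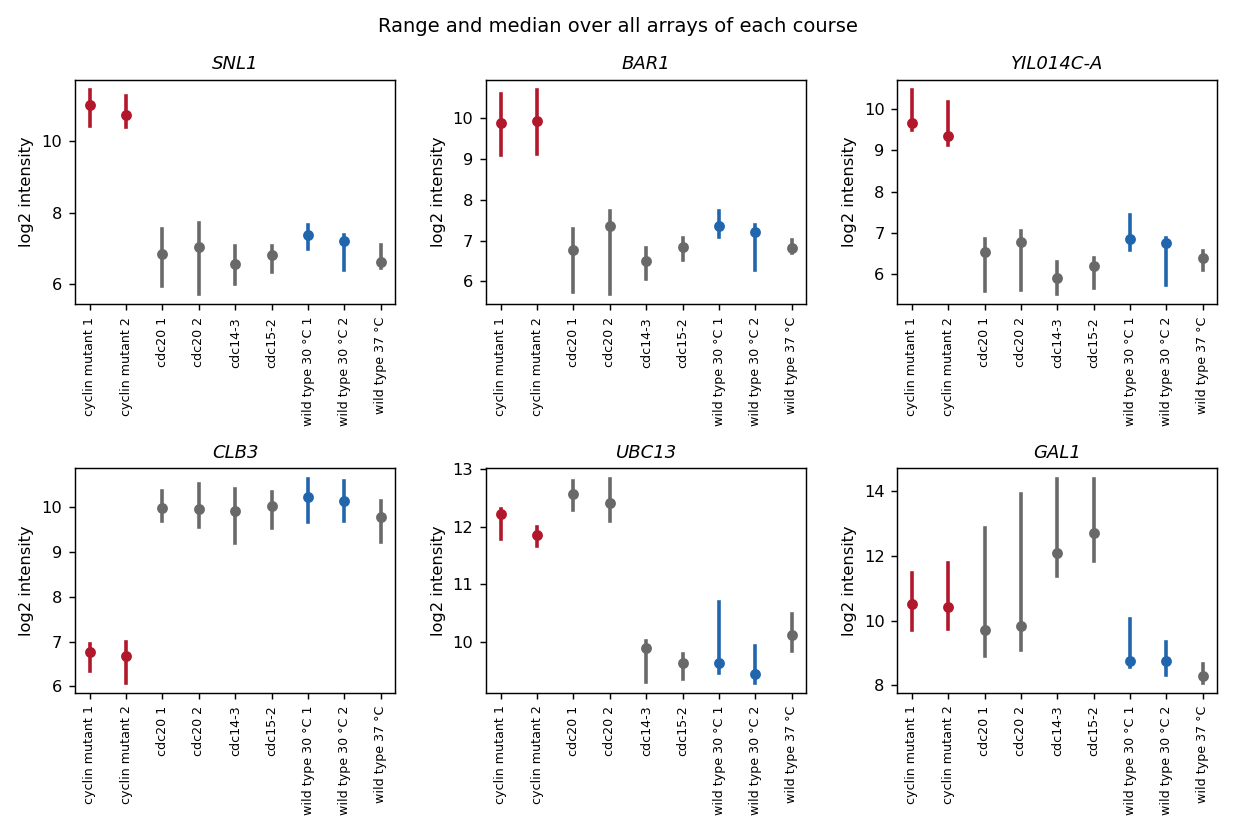
Lowest to highest log2 intensity (bars, vertical axis) and median (points) of 6 genes over all arrays of each of the 9 courses (horizontal axis), mutant courses in red at the left and 30 °C wild-type courses in blue. SNL1, BAR1 and YIL014C-A are above 9 in the mutant courses and below 8 elsewhere, and UBC13 is above 11 in the mutant and cdc20 courses.

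Other called or separated genes also lay beside each other. These groups of neighbours were looked for after the values had been seen, so they are described without a test. Of the 136 genes whose groups of 5 arrays did not overlap, 19 fell into 7 runs of adjacent measured genes with the same direction, 4 of them with 3 or more genes. One run was SNL1, BAR1 and YIL014C-A, and another was GAL7, GAL10 and GAL1. Another held PNP1, CLB4 and ATG38 on chromosome XII. ATG38, a subunit of an autophagy lipid kinase complex, read 6.90, 6.62, 7.01, 6.79 and 6.82 in the mutant, against 8.92, 8.81, 8.48, 8.56 and 8.10 in the wild type. It was lower in the mutant, where all 5 arrays were below the dimmest 5% (difference -1.79 ± 0.16, adjusted p = 0.0356). PNP1, a purine nucleoside phosphorylase on the other side of CLB4, had a difference of -0.67 ± 0.16 (adjusted p = 0.41), with 9.24 to 10.16 in the mutant and 10.18 to 10.55 in the wild type.

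A pair of neighbours on chromosome XV, WHI2 and IRC23, had differences of 0.36 and 0.31.

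The other 3 runs lay in 1 stretch of chromosome III. From MAK32 to RHB1, 11 neighbouring genes were measured, and all 11 were lower in the mutant, as were 2599 of all 5449 genes. Of the 11, 8 were lower without overlap between the groups, as were 1.06% of all genes. The stretch was picked for its genes without overlap, so these counts test nothing. None of the 11 passed the test. Their median difference was -0.79, and the differences ran from -1.05 to -0.13. PET18, a gene whose loss disturbs respiratory growth, read 9.99 to 10.57 in the mutant and 10.78 to 11.76 in the wild type (difference -0.92 ± 0.17, adjusted p = 0.338). SLM5, a mitochondrial asparaginyl-tRNA synthetase, read 8.70 to 9.25 in the mutant and 9.49 to 10.31 in the wild type (-0.98 ± 0.15, adjusted p = 0.191). RHB1, a small GTPase of arginine and lysine uptake, read 8.88 to 9.32 in the mutant and 9.68 or more in the wild type (-0.92 ± 0.15, adjusted p = 0.246). All 11 were also lower at 70 to 102 and at 110 to 142 min, and 9 of the 11 were called lower in the mutant than in cdc20, as were 22.5% of all genes. Outside the stretch, SRD1 on one side had a difference of -0.13, and FEN2 and RIM1 on the other had -0.29 and 0.14. PMP1, inside it, had -0.13, so the edges are not sharp. FEN2 had -0.47 at 70 to 102 min and -0.53 at 110 to 142 min. Against cdc20, SRD1 (-1.66, adjusted p = 0.00771), POL4 (-0.76, 0.0185) and CTO1 (-0.59, 0.0253), all outside the stretch, were also called lower. The other outside genes looked at, ADP1, PGK1, CWH43, FEN2, RIM1 and SYP1, were not called against cdc20.

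GAL1 and GAL10 were higher in the mutant, whose only listed B-type cyclin source stands behind the GAL1 promoter. Dextrose is the sugar given for the medium of both strains, and the part of earlier growth conditions was not tested. GAL1 and GAL10 were the 2 called of 8 measured galactose genes (0.239% of all genes were called). At all 5 times 4 were higher, as were 12.3% of all genes, and the median difference was 0.77. GAL1, the galactokinase, read 11.80, 11.46, 11.30, 11.18 and 11.56 in the mutant, against 10.05, 9.34, 9.37, 9.14 and 9.43 in the wild type. GAL10, the epimerase transcribed from the same promoter region, read 11.16, 10.80, 10.96, 10.69 and 11.18 in the mutant, against 9.33, 8.80, 8.76, 8.86 and 9.09 in the wild type. Neither pair of groups overlapped, and the differences were 2.01 ± 0.19 and 1.98 ± 0.19 (adjusted p = 0.0356 for both). GAL7, the uridylyltransferase, had 10.17 to 10.76 in the mutant and 9.01 to 9.47 in the wild type, with a difference of 1.34 ± 0.19 that was not called (adjusted p = 0.154). GAL2, the galactose permease, had a difference of 1.33 ± 0.38 (adjusted p = 0.422). The regulators did not separate, with differences of 0.21 ± 0.22 for GAL3, the galactose sensor, and 0.07 ± 0.16 for GAL80, the repressor. GCY1 and PGM2, which also respond to stress, had -0.58 ± 0.47 and -0.63 ± 0.23. High GAL1 readings were also found outside the mutant, and over all times it reached 12.86 and 13.93 in the cdc20 courses, 14.37 in cdc14-3 and 14.39 in cdc15-2.

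Of the genes that the mutant's label names as markers at the disrupted loci, 5 were measured and 0 were called. Whether the label names each marker correctly was not tested. Their differences were positive in 4 and negative for APE1. URA3 (uracil synthesis) had 11.34 to 12.02 in the mutant and 10.24 to 10.70 in the wild type, a difference of 1.16 ± 0.20 (adjusted p = 0.32). LEU2 (leucine synthesis) had 11.16 to 11.59 in the mutant and 9.54 to 10.60 in the wild type (1.32 ± 0.29, adjusted p = 0.407). ARG4 (arginine synthesis) had 11.50 to 11.85 in the mutant and 10.53 to 10.78 in the wild type (1.00 ± 0.15, adjusted p = 0.197). HIS2 (histidine synthesis) had a difference of 0.73 ± 0.15 (adjusted p = 0.407), with overlap. APE1, a vacuolar aminopeptidase, read lowest at 62 min in both strains and had a difference of -1.16 ± 0.27 (adjusted p = 0.41). TRP1 was not analysed here. The pathways of these markers showed no calls: 0 of 10 uracil genes (median 0.29), 0 of 12 leucine and valine genes (0.05), 0 of 9 tryptophan genes (-0.09), 0 of 7 histidine genes (0.13) and 0 of 11 arginine genes (-0.08). Other members of these lists were URA7 with 0.92 ± 0.22, LEU1 with -0.79 ± 0.17, ARG1 with -0.93 ± 0.43, ARO2 with 0.42 ± 0.17, HIS6 with 0.39 ± 0.25 and TRP5 with -0.32 ± 0.15. None of these was called, and with 0.239% of all genes called, 0 calls in lists this small say little.

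None of the 16 G1 regulators was called, against 0.239% of all genes. Of them 4 were higher in the mutant at all 5 times, as were 12.3% of all genes, and the regulators' median difference was 0.21. FAR1, an inhibitor of Cln kinase, had the largest, with 8.48, 9.43, 10.29, 10.70 and 10.91 in the mutant against 8.18, 8.16, 9.48, 9.76 and 10.47 in the wild type (0.81 ± 0.20, adjusted p = 0.41). It was highest at 62 min in both strains and higher in the mutant at each time. The G1 cyclins CLN1, CLN2 and PCL1 had their highest early values at 62 min in both strains. CLN2 read 7.14, 7.22, 8.49, 7.81 and 9.86 in the mutant, against 7.22, 6.97, 7.36, 7.68 and 8.46 in the wild type (0.50 ± 0.34, adjusted p = 0.612). CLN1 had a difference of 0.72 ± 0.26 and PCL1 one of 0.49 ± 0.38. CLN3, the cyclin that starts the G1 programme, had -0.25 ± 0.23. For WHI5, the repressor that Cln3 relieves, the difference was 0.07 ± 0.28, and for SIC1, the inhibitor of B-type cyclin kinase, 0.02 ± 0.20. The subunits of SBF and MBF had -0.05 ± 0.24 (SWI4), 0.27 ± 0.20 (SWI6) and 0.34 ± 0.18 (MBP1). CDC28, the kinase, had -0.35 ± 0.20, CKS1 0.36 ± 0.21, BCK2 0.27 ± 0.15, PHO85 -0.09 ± 0.15, WHI3 -0.26 ± 0.17 and STB1 0.16 ± 0.15. A p that misses the threshold with 2 courses a strain does not show that these levels were equal.

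Target genes of the cell cycle factors were likewise without calls, which says little when 0.239% of all genes were called. The 20 SBF targets, genes of budding and the cell wall, had a median difference of 0.20. The list stood at -0.28, 0.75 and 0.74 at 30, 46 and 62 min, the times of mutant replicate 2 and wild-type replicate 1, and 0.18 and 0.10 at 38 and 54 min. SRL1, a wall mannoprotein, had 9.18 to 11.51 in the mutant and 10.28 to 11.39 in the wild type (-1.18 ± 0.36, adjusted p = 0.422), and MNN1, a mannosyltransferase, 0.75 ± 0.24. The 28 MBF targets, genes of DNA replication, had a median of 0.07, with 0.72 ± 0.27 for the cohesin MCD1 and -0.58 ± 0.21 for RFA2. The 8 histone genes had a median of -0.25, led by HTA1 (-0.34 ± 0.15) and HTB1 (-0.32 ± 0.16). The 19 genes of the CLB2 cluster, which act in mitosis, had 0.06, and the largest were KIN3, a kinase, with 0.87 ± 0.21 and HOF1, a cytokinesis protein, with -0.56 ± 0.16. The 12 Mcm1 genes of the M-to-G1 transition had -0.00, with 0.34 ± 0.15 for MCM6, a helicase subunit.

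DSE1, a daughter-specific gene, was among the called genes. It read 8.01, 8.21, 8.55, 8.45 and 8.76 in the mutant, against 6.51, 6.39, 7.05, 7.51 and 6.90 in the wild type, a difference of 1.5 ± 0.15 (adjusted p = 0.0406). Wild-type values were near the dim end, and the groups did not overlap. DSE1 differed from the cdc20 courses by 0.27. Of the 26 pheromone genes only BAR1 was called (0.239% of all genes were). At all 5 times 8 were higher, as were 12.3% of all genes, and the median was 0.12. The a-cell markers MFA1, MFA2 and STE2 were above 12 in all 10 arrays, and both strains are labelled MATa. BAR1, also an a-cell marker, read 6.28 to 7.68 in the wild type, which is labelled bar1. Levels of the a-cell markers STE6, AGA2 and ASG7 are not given here. Of the alpha-cell markers, STE3 and MF(ALPHA)1 read 8.32 or less, but MF(ALPHA)2 and SAG1 read higher. MF(ALPHA)2 had 7.89 to 9.11 in the mutant and 7.24 to 8.67 in the wild type (0.47 ± 0.33). SAG1 had 8.93 to 9.31 in the mutant and 9.13 to 9.71 in the wild type (-0.24 ± 0.18).

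Phosphate starvation genes read higher in the mutant, 1 of them past the test. They are the targets of Pho4, which acts when the kinase pair Pho80 and Pho85 is inhibited. Of 11 measured members 1 was called (0.239% of all genes were). At all 5 times 8 were higher, as were 12.3% of all genes, and the median difference was 0.98. SPL2, which regulates low-affinity phosphate uptake, read 10.40, 10.05, 11.72, 11.83 and 12.30 in the mutant, against 7.99, 7.81, 9.16, 10.14 and 10.56 in the wild type. It was highest at 62 min in both strains and higher in the mutant at each time, by 4.28-fold on course means (2.10 ± 0.23, adjusted p = 0.0475). The groups overlapped only because the late wild-type values reached the early mutant ones. PHO84, the high-affinity phosphate transporter, had 13.98, 14.04, 14.24, 14.14 and 14.19 in the mutant, against 10.69, 10.17, 14.10, 13.96 and 14.06 in the wild type. The strains differed at 30 and 38 min, in both pairs of courses, and lay close together from 46 min on (1.61 ± 0.30, adjusted p = 0.338). VTC3, which makes polyphosphate, had 12.10 to 13.34 in the mutant and 10.55 to 12.82 in the wild type (0.98 ± 0.15, adjusted p = 0.197). PHO11, an acid phosphatase, had a difference of 1.44 ± 0.35, PHO89, a sodium-phosphate cotransporter, 1.40 ± 0.34, and PHM6 1.38 ± 0.33, each with an adjusted p of 0.41. PHO8, the vacuolar phosphatase, had -0.08 ± 0.28. The list median was 0.11 at 70 to 102 min and 0.01 at 110 to 142 min.

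Sulfate and methionine genes differed mainly at 46 and 54 min, when their median difference was 1.37 and 1.52, against -0.60, 0.24 and -0.04 at 30, 38 and 62 min. All 16 had a positive difference of course means, with a median of 0.65, but 1 was called (0.239% of all genes were). None was higher at all 5 times, against 12.3% of all genes. MET17, which fixes sulfide into homocysteine, read 9.74, 10.62, 13.43, 13.44 and 12.84 in the mutant, against 10.82, 10.69, 9.77, 9.83 and 10.48 in the wild type. It was lower in the mutant at 30 and 38 min and higher afterwards, and the mean difference was 1.71 ± 0.15 (adjusted p = 0.035). That SE measures only the spread between course means, while the differences by time ran from -1.07 to 3.66. MET17 was called in 7 of 12 alternative settings that kept all courses. STR3, a cystathionine lyase, reached 10.66 in the mutant at 46 min, against 7.45 in the wild type, and MET6, methionine synthase, 14.03 at 54 min, against 12.20. Since the high readings came from both mutant courses, they were not confined to 1 of them.

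The change of the difference within early G1 was tested as a difference of slopes. No gene passed (0 of 5449, 0%), and 118 had an unadjusted p under 0.05. MET17 had the largest positive slope difference (4.22 ± 1.44 per 32 min), followed by ARG1, the argininosuccinate synthase (3.23 ± 0.91), HXT2, a glucose transporter (3.14 ± 1.09), MXR1, a methionine sulfoxide reductase (2.53 ± 1.45), and MET6 (2.39 ± 0.92). PHO84 had the largest negative one (-4.0 ± 1.34), with slopes of 0.21 in the mutant and 4.22 in the wild type. SIP18, an osmotic stress gene, had -2.43 ± 0.86, SPS100 -2.12 ± 0.43, ALD3 -2.07 ± 1.06 and TKL2 -1.93 ± 1.25. The adjusted p was 0.999 for each.

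General stress genes read lower in the mutant on average, without a call. None of 25 was called (0.239% of all genes were), 24 had a negative difference, and the median was -0.73. At all 5 times 9 were lower, as were 10.9% of all genes. SPI1, a wall protein, read 13.89, 13.78, 12.09, 11.06 and 9.95 in the mutant, against 14.27, 14.34, 13.87, 13.33 and 11.48 in the wild type (-1.32 ± 0.27, adjusted p = 0.407). ALD3, an aldehyde dehydrogenase, read 13.75, 13.20, 12.69, 10.21 and 9.16 in the mutant, against 13.66, 13.62, 13.11, 13.02 and 10.47 in the wild type (-1.08 ± 0.31, adjusted p = 0.422). Both genes read lowest at 62 min in both strains, and the strains were furthest apart at 54 min. The list medians were 0.05, -0.53, -0.54, -1.71 and -0.21 at the 5 times. The 20 Hsf1 chaperones had a median of -0.35, with 19 negative, 10 lower at all 5 times and none called, BTN2 with -1.21 ± 0.44 and HSP42 with -1.09 ± 0.34. The 9 osmotic stress genes had -0.24, with -1.81 ± 0.59 for STL1, a glycerol importer, and 0.61 ± 0.30 for SIP18.

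Ribosome assembly factors read higher in the mutant on average. None of 39 was called (0.239% of all genes were), 38 had a positive difference, and the median was 0.48. At all 5 times 18 were higher, as were 12.3% of all genes. UTP4, of the small-subunit processome, read 10.38, 11.24, 11.63, 12.18 and 11.84 in the mutant, against 8.99, 9.95, 11.06, 11.58 and 11.36 in the wild type (0.88 ± 0.21, adjusted p = 0.41), and RRP5 had 0.77 ± 0.18. The list medians were 0.54, 1.30, 0.14, 0.28 and 0.08 at the 5 times. At 70 to 102 min the median was 0.04 for these factors and 0.02 for the general stress genes. The 19 ribosomal protein genes had 0.09, with 0.14 ± 0.15 for RPL39 and 0.14 ± 0.16 for RPL29.

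Wild-type replicate 2 moved with these results. Its general stress genes were higher than those of replicate 1 by a median of 0.60, and the mutant's median difference was -0.99 against replicate 2 and -0.46 against replicate 1. The 2 replicates were sampled at different minutes, so replicate and sampling time cannot be told apart here. The wild-type list median read 13.66, 12.64 and 9.995 at 30, 46 and 62 min (replicate 1). It read 13.54 and 12.00 at 38 and 54 min (replicate 2). For the Hsf1 chaperones the mutant's median was -0.58 against replicate 2 and -0.16 against replicate 1, and for the ribosome assembly factors 0.54 and 0.40. Of the 20 glucose-repressed genes none was called (0.239% of all genes were), and their median was -0.73 against replicate 2 and -0.28 against replicate 1. ADH2, the glucose-repressed alcohol dehydrogenase, shows it most clearly, with 8.61 to 9.0 in all mutant arrays and 9.04, 13.83, 8.64, 13 and 9.02 in the wild type, the high values being those of replicate 2. JEN1, a lactate permease, had 9.25 to 9.81 in 4 of the mutant arrays and 8.98 in the other, and 9.85 to 12.00 in the wild type (-1.29 ± 0.30, adjusted p = 0.408). The osmotic stress list had -0.69 against replicate 2 and 0.05 against replicate 1, and the iron uptake list -0.66 and -0.05. The phosphate list had 1.03 against replicate 2 and 0.90 against replicate 1. Whether the wild-type replicate itself or its sampling times account for any of these differences was not tested.

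**Figure D4:**
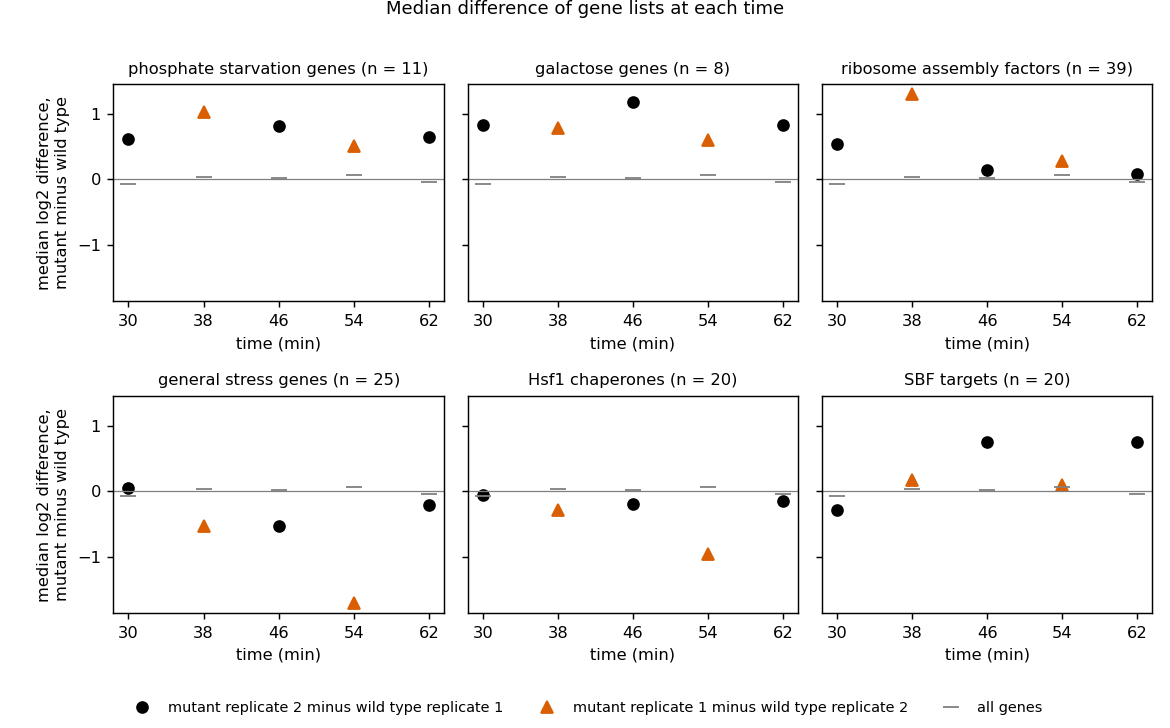
Median mutant minus wild-type difference in log2 intensity (vertical axis) of 6 gene lists at 30 to 62 min (horizontal axis, min). Circles compare mutant replicate 2 with wild-type replicate 1, triangles mutant replicate 1 with wild-type replicate 2, and grey dashes mark all genes. Phosphate and galactose genes are above 0.5 at all 5 times, while the general stress genes reach -1.71 at 54 min and are at 0.05 at 30 min.

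Among the 10 early arrays, those of the mutant were nearest to wild-type arrays of the same or a later time. No wild-type array was earlier than 30 min. For the mutant arrays at 30, 38 and 54 min, the nearest came from the wild-type course not sampled at their own time. Time and course cannot be told apart there. By the root mean square difference over 5449 genes, the mutant array at 38 min was nearest to the wild-type array at 46 min (0.36) and the one at 54 min nearest to that at 62 min (0.44). The mutant arrays at 46 and 62 min were nearest to wild-type arrays of their own time (0.47 and 0.37). The one at 62 min was nearer still to the later wild-type array at 78 min (0.34), and the one at 30 min was nearest to that at 38 min (0.43). Mutant arrays at 54 and 62 min were 0.34 apart. Taking the mutant samples 16 min later raised the number of called genes to 1100, and taking the wild-type samples 16 min later gave 26, of which 11 were among the 13.

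In the remaining lists no member was called, against 0.239% of all genes. Medians were 0.14 for 33 respiratory chain genes (CYT1 -0.43 ± 0.26, ATP20 0.40 ± 0.15), 0.14 for 17 hexose transport and phosphorylation genes (GLK1 -1.08 ± 0.29, MTH1 0.83 ± 0.17) and -0.05 for 15 purine genes (ADE1 1.03 ± 0.27, ADE2 -0.50 ± 0.21). They were -0.32 for 14 iron uptake genes (FRE3 -0.93 ± 0.35, HMX1 -0.89 ± 0.32) and -0.02 for 8 DNA damage genes (PHR1 -0.34 ± 0.26, RAD54 -0.29 ± 0.16). QDR2, a plasma membrane exporter of potassium, copper and drugs that belongs to none of the lists, was called. It read 6.34, 6.95, 7.09, 7.23 and 7.24 in the mutant, against 8.67, 8.28, 8.70, 8.95 and 9.17 in the wild type. It was lower without overlap, all 5 mutant arrays being below the dimmest 5% (-1.74 ± 0.17, adjusted p = 0.0356), while its neighbours POG1 and QDR1 had 0.18 and -0.18.

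The early difference minus the difference at 110 to 142 min passed the test for 21 genes, 19 positive (0.349%) and 2 negative (0.0367%), and 980 genes had an unadjusted p under 0.05. The count was 8 without mutant replicate 1, 2 without mutant replicate 2, 257 without wild-type replicate 1 and 37 without wild-type replicate 2. CLB1 had an early difference of 3.86 and a later one of -0.03, as the wild type reached 11.09 while the mutant stayed at 11.05 (change 3.89 ± 0.15, adjusted p = 0.00168). CLB2 had -0.11 early and -3.92 later, with 7.09 in the mutant and 11.02 in the wild type (change 3.81 ± 0.20, adjusted p = 0.00442). HOF1 followed with 2.66 ± 0.22, PHO3, an acid phosphatase, with 2.55 ± 0.25, and MMR1, which brings mitochondria to the bud, with 2.27 ± 0.24. In the CLB2 cluster 6 of 19 members were called, and its median difference was -1.30 at 110 to 142 min. FAR1 was among the called genes, with a later difference of -1.42. ARA2, an arabinose dehydrogenase, and PCL5, a Pho85 cyclin, had negative changes of -1.52 ± 0.17 and -1.46 ± 0.16 (adjusted p = 0.0398 for both). The differences of SNL1 (3.77), BAR1 (2.43), GAL1 (1.74), CLB3 (-3.68) and QDR2 (-2.40) were still large at 110 to 142 min, whereas those of SPL2 (-0.62), DSE1 (0.12) and MET17 (0.10) were not.

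**Figure D5:**
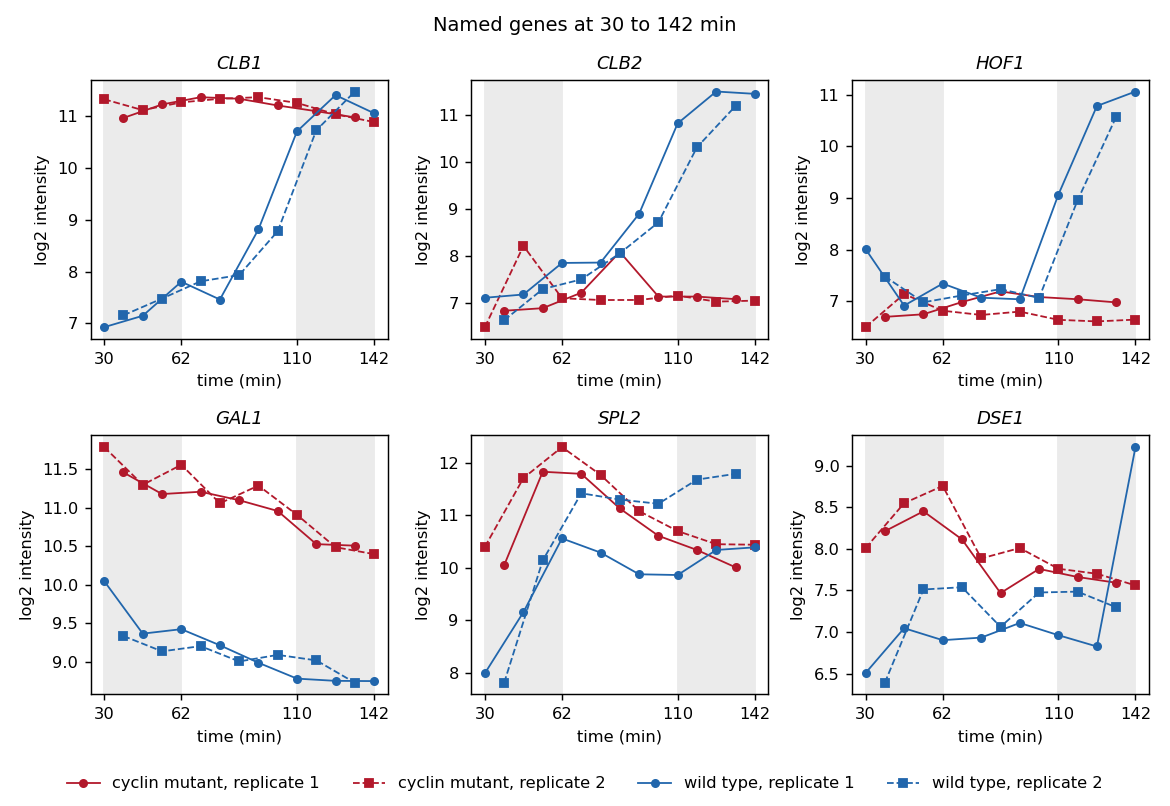
Log2 intensity (vertical axis) of 6 genes at 30 to 142 min (horizontal axis, min), mutant courses in red and wild-type courses in blue, with the windows of 30 to 62 and 110 to 142 min shaded. CLB1, CLB2 and HOF1 climb in the wild-type courses, GAL1 stays higher in the mutant, and the lead of the mutant in SPL2 and DSE1 is seen in the first window.

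The cdc20 strain offers a second comparison at these times, since it too carries a construct on a galactose promoter. It has 2 arrays a course in this window, at other minutes, and its sampling times go with the strain, so the 2 cannot be told apart. The mutant differed from cdc20 in 1984 genes, 756 higher (13.9%) and 1228 lower (22.5%), and with quantile normalization 993 were higher and 1037 lower. The count was 832 without mutant replicate 1, 412 without mutant replicate 2 and 1191 without cdc20 replicate 1. The largest were YLR415C with 4.84 ± 0.37, SNL1 with 4.61 ± 0.16, YIL014C-A with 3.78 ± 0.25, YKR104W with 3.69 ± 0.36 and BAR1 with 3.33 ± 0.33. In the cdc20 course means YLR415C read 4.71 and 5.00 and YKR104W 6.57 and 6.65. These lie below the dim end given for the mutant and wild-type arrays. In the mutant both genes read highest at 46 min, with 11.82 and 12.46, in the array with the brightest dim end. On the lower side were AQR1, a drug exporter, with -4.13 ± 0.23, CLB3 with -3.33 ± 0.13, ADE17 of purine synthesis with -2.79 ± 0.15, SRL1 with -2.79 ± 0.31 and YOR338W with -2.26 ± 0.30. GAL1 was lower in the mutant than in cdc20 (-0.79, adjusted p = 0.0175), and GAL10 differed by -0.07 (adjusted p = 0.76). SPL2 was higher by 1.20 (adjusted p = 0.0136). This comparison and the one with wild type share the mutant arrays.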

How the data were processed

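RNA of budding yeast was measured on 142 Affymetrix arrays, of which 10 are compared here. The deposited table holds linear intensity values for 5900 probe sets, between 22.2 and 35171, and the submitters' processing notes name affy; how the authors normalized the arrays is not given in the sources used here. The values of wild-type replicate 2 were moved up by 1 row, a displacement inferred from the values. The log2 of the deposited values was taken with a pseudocount of 0. Of the probe sets, 5498 named 1 gene through the platform annotation, 184 were controls and 218 had no single gene name. For 47 genes with several probe sets the brightest was kept, leaving 5449 genes, and 12 symbols were updated through gene identifiers from RefSeq's R64 annotation, which was used only for names and gene order.

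Arrays of a course were averaged, since they share a source, and strains were compared over 2 courses each with limma 3.58.1 in R 4.3.3 and the Benjamini-Hochberg adjustment, with a threshold of 0.05. Tables were handled in Python 3.11.15 with numpy 2.4.6 and pandas 2.3.3, and drawn with matplotlib 3.10.9. The number of arrays limits the precision. The numbers were not taken to pair the courses. Same-numbered courses did not deviate together (correlation -0.0327), but they were sampled at different minutes, so this value cannot show whether the numbers pair them. The genes named were all members of the cyclin, marker, G1 regulator and galactose lists, the largest called differences in each comparison, and up to 4 called or the 2 largest members of each other list. Neighbours of called genes and the chromosome III stretch were added after their values were seen. The members and all 30 lists were chosen with earlier results of these data known. The result of 1 list is not reported here. Alternatives covered row placement, blocks, the unit of replication, normalization, dim genes, the pseudocount, the clock and each course left out.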

Additional observations from a re-analysis of the deposited data

Results flagged for a closer look

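The difference between the strains at 30 to 62 min and that at 110 to 142 min were themselves compared, and the genes with the largest changes are listed here because their 2 differences differed by that test. The change was 3.89 for CLB1 (adjusted p = 0.00168), 3.81 for CLB2 (0.00442), 2.66 for HOF1 (0.0216), 2.55 for PHO3 (0.0328) and 2.27 for MMR1 (0.0382). It was -1.52 for ARA2 and -1.46 for PCL5 (adjusted p = 0.0398 for both).

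Control probe sets, which no comparison used, also differed. Of the 3 control probe sets for URA3, the one at the 3' end read 11.01 to 11.64 in the mutant and 9.79 to 10.45 in the wild type, a difference of 1.28. The middle one differed by 1.35, and the one at the 5' end by 0.22. Of 47 reporter and marker control probe sets, 2 were higher in every mutant array than in any wild-type array and by more than 1 in course means, with differences of 2.06 and 1.16, and 2 were lower in every mutant array. No array stood apart from the other 4 of its group by Dixon's criterion in the 16 genes looked at.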

How the results depend on the processing

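Early calls numbered 13, and 0 with wild-type replicate 2 as deposited (10 at an unadjusted p under 0.05 in limma), 4 with the replicate number as a block, 62 with the 10 arrays paired by time, 35 with linear time and course as a random block, and 1 without the dimmest 25% of genes, where fewer genes were tested. They numbered 1100 with mutant samples and 26 with wild-type samples taken 16 min later. An alternative chosen after seeing the data, without the mutant array at 46 min and the wild-type array at 62 min, gave 30. Leaving out 1 course gave 3 to 26. Calls in the change of the difference numbered 21, and 0 as deposited, 2 with the replicate block, 13 with quantile normalization and 2 to 257 with 1 course left out. Calls against cdc20 numbered 1984, and 412 to 1736 with 1 course left out. The slope test gave 0 calls in all settings tried, with 57 to 352 genes at an unadjusted p under 0.05. DSE1 had -0.38 with wild-type replicate 2 as deposited, and SIP18 had -1.54 with mutant samples 16 min later. Apart from the smaller number of genes or courses, the cause was not tested. With 2 pairs, the replicate numbers were not shown to pair the courses. Signals near the dim end limit differences for SNL1, YIL014C-A, BAR1, CLB1, DSE1, CLB2, CLB3, ATG38 and QDR2. Against cdc20 they also limit those of YLR415C and YKR104W.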
